A study of Homo sapiens with 8 samples.

Results

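Wnt, Hippo and Notch signalling were followed through 60 genes chosen by name, and their values were read from an m6A comparison of 2 human hepatocellular carcinoma cell lines with and without CSTF2. Of the 60 genes, 53 were listed for HUH7 and 31 for PLC/PRF/5, 27 in both lines and 57 in at least 1, out of 11992 genes listed in either line. The Wnt pathway held 35 members (30 listed in HUH7, 14 in PLC/PRF/5), the Hippo pathway 17 (15 and 11) and the Notch pathway 8 (8 and 6). The Wnt receptor gene FZD2, the stem cell receptor gene LGR5 and the Dishevelled gene DVL2 were listed in neither line. The members were picked with earlier results of these data known, so nothing is read from how many of them were listed.

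HUH7 and PLC/PRF/5 are established liver cancer cell lines. In each, parental cells served as the control and CSTF2, whose protein is part of the complex that cleaves pre-mRNA at the 3′ end, had been knocked out with CRISPR-Cas9 (whether a knockout line was 1 clone or a pool is not given in the sources used here). MeRIP-seq sequences RNA fragments pulled down with an antibody against N6-methyladenosine (m6A), an mRNA base modification, beside the input RNA. The 8 libraries were an immunoprecipitate and an input for each genotype and line, 1 library per group, so no value has a replicate and no test between genotypes was possible.

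In the Wnt pathway, secreted ligands bind Frizzled receptors and LRP co-receptors, Dishevelled relays the signal, and the destruction complex of APC, AXIN, GSK3 and casein kinase releases beta-catenin, which joins TCF and LEF factors on DNA. In the Hippo pathway, a chain of kinases holds the coactivators YAP and TAZ out of the nucleus, where they would otherwise bind TEAD factors. In the Notch pathway, a ligand on one cell makes the receptor of its neighbour shed an intracellular domain that acts with RBPJ and Mastermind proteins on DNA. All of these pathways govern growth, zonation or cell fate in liver.

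The values are the authors' log2 fold changes, 1 per gene in HUH7 and 1 per peak (a region called as enriched) in PLC/PRF/5. The headers do not say which genotype is the numerator, so "positive" and "negative" are used as deposited and stand for no direction towards the knockout. The scaling of immunoprecipitate to input is also not given, so a change in methylation and a change in RNA amount cannot be told apart. In HUH7, 12.6% of all genes held 1 of 16 repeated values, each shared by 10 or more genes. Their sizes are spaced like the logarithms of the whole numbers 3 to 10 above a fixed base, 1 base for positive and 1 for negative values. Such values are named apart from the unrepeated ones below and are not ranked. In PLC/PRF/5 the values of all peaks filled the range upwards from -2.12 evenly, with 599 to 655 peaks in each of 15 unit-wide bins between -2 and 13. Whether these values are the fold changes of the genes beside them, as the header labels them, could not be checked, and they are given as labelled. Hepatocyte marker genes were listed for 7 of 10 in HUH7 and 6 of 10 in PLC/PRF/5, with AFP and TTR in neither, and markers of other cell types for 10 of 15 and 3 of 15. A listing is not an expression level, so the labelled cell type could not be checked further.

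The members divided almost evenly by sign in HUH7, with 26 positive and 27 negative values. Their median was -0.13 (binomial 95% interval -0.30 to 0.64, n = 53 genes) and the interquartile range ran from -0.56 to 0.90, while all 10447 genes of the column had a median of 0.20 and quartiles of -0.36 and 0.87. Positive values made up 49.1% of the members (exact 95% interval 35.1 to 63.2) beside 60.8% of all genes. These intervals describe the list of genes and hold no error between libraries. At a log2 fold change of 1 or more lay 12 members (22.2% of all genes did so) and at -1 or less 8 members (14.6% of all genes), with 33 members between. Repeated values were held by 7 members, or 13.2% beside 12.6% of all genes, 2 of them positive (4.7% of all genes) and 5 negative (7.89%). Of the 46 members with unrepeated values, 10 lay at 1 or more (20.1% of all such genes) and 3 at -1 or less (7.72%). Measured against the column median of 0.20, 23 members lay above and 30 below. The co-receptor gene LRP5, the coactivator gene YAP1 and the TEAD factor gene TEAD4 were the 3 members whose sign turned between the scales.

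**Figure D1:**
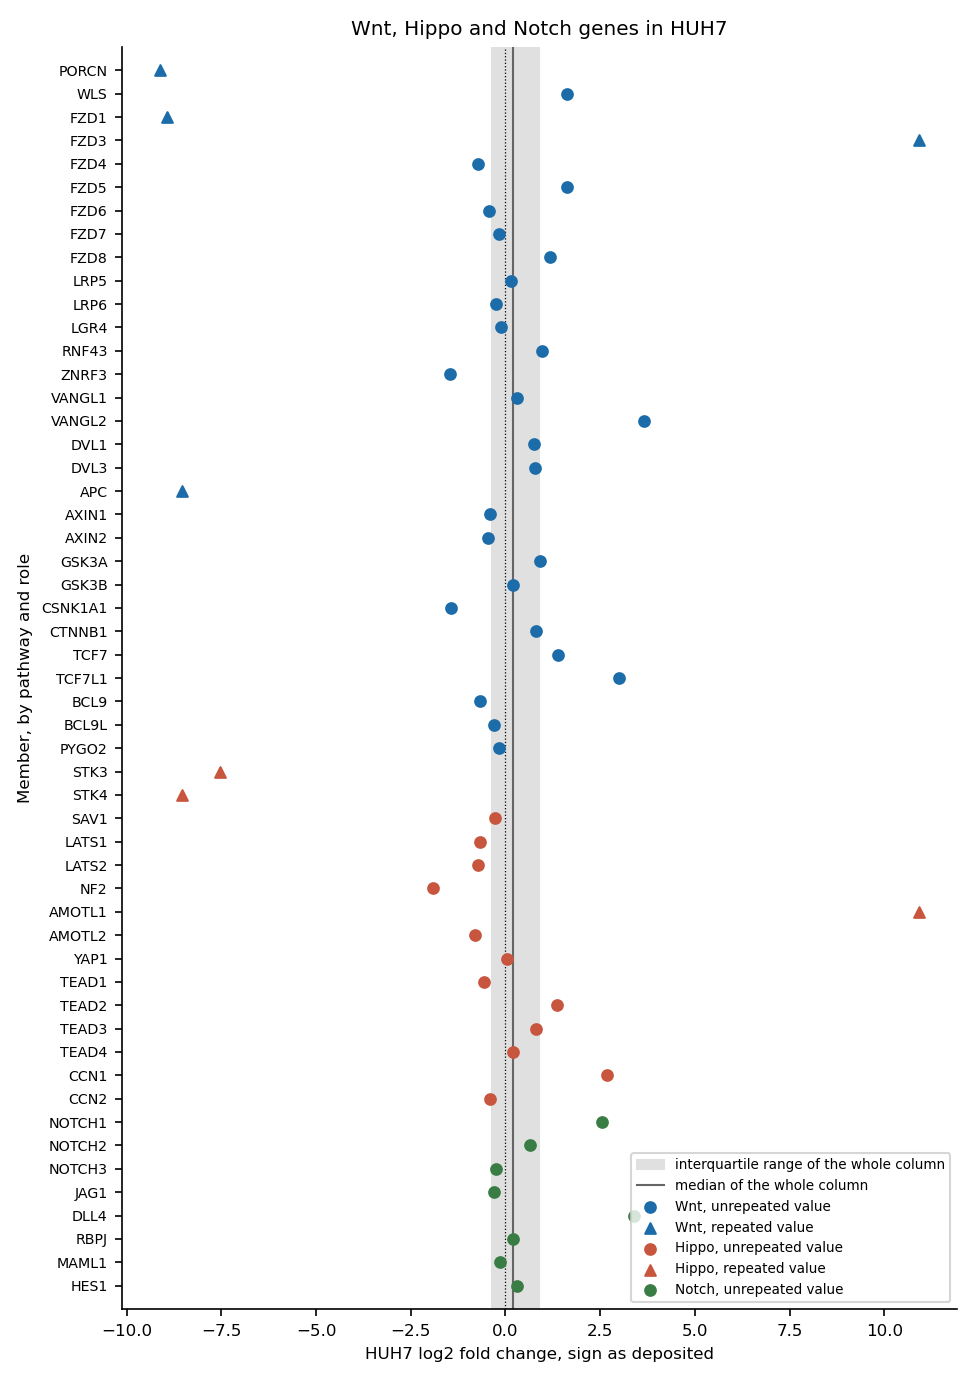
HUH7 log2 fold change (horizontal axis, sign as deposited) of each of the 53 listed members (vertical axis, by pathway and role), with circles for unrepeated and triangles for repeated values, 1 comparison and no replicate. Most points lie within or near the grey band from -0.36 to 0.87 that marks the interquartile range of all genes, and VANGL2 at 3.65 is the highest circle.

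Frizzled receptors and the genes that make or place their ligands went both ways in HUH7. WLS, which carries Wnt ligands to the cell surface, had 1.64 in the authors' deposited table. PORCN, the acyltransferase that lipidates Wnt ligands, had the repeated value -9.11 in the authors' deposited table. WLS stood above 86.1% of all genes, and the repeated PORCN value is not ranked.

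Of the 8 Frizzled genes, 7 were listed in HUH7, 3 positive (60.8% of all genes) and 4 negative. FZD5 (chromosome 2, 207762598 to 207769906, GRCh38) had 1.64 and FZD8 had 1.18 in the authors' deposited table. FZD7 (-0.17), FZD6 (-0.45) and FZD4 (-0.72), receptors of the same family, lay on the other side of 0 in the authors' deposited table. The unrepeated Frizzled values were 2.36 apart at their ends. FZD1 and FZD3 held repeated values of opposite sign, -8.94 and 10.92 in the authors' deposited table, and on both sides these stand for the whole number 8 of the series. Receptors of 1 family therefore did not share a sign.

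LRP5 and LRP6, the co-receptors that Frizzled proteins pair with, lay close together. LRP5 had 0.15 and LRP6 had -0.24 in the authors' deposited table. LGR4, a receptor for R-spondins, which strengthen Wnt signals, had -0.13 in the authors' deposited table. RNF43 and ZNRF3 encode membrane ubiquitin ligases that remove Frizzled receptors from the surface, the step that R-spondins block. RNF43 (chromosome 17, 58352500 to 58417534) had 0.97 in the authors' deposited table. ZNRF3 (chromosome 22, 28883572 to 29057488) had -1.46 in the authors' deposited table. These paralogues with the same known task were 2.43 apart, with ZNRF3 among the 3 unrepeated members at -1 or less.

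VANGL2, a membrane protein of planar cell polarity (the Wnt branch that orients cells within a sheet), had the largest unrepeated value of all members. Its value was 3.65 (chromosome 1, 160400564 to 160428670) in the authors' deposited table, above 93.9% of all genes. VANGL1, its paralogue, had 0.32 in the authors' deposited table, and so lay within the interquartile range of the column while VANGL2 lay far outside it.

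Dishevelled genes, which link receptors to the destruction complex, were alike in HUH7. DVL1 had 0.75 and DVL3 had 0.78 in the authors' deposited table. Of the 6 destruction complex genes, 2 were positive (60.8% of all genes) and 4 negative. Their median was -0.44 beside 0.20 for all genes. GSK3A (0.90) and GSK3B (0.20), the kinases that mark beta-catenin for removal, were the positive ones in the authors' deposited table. AXIN1 (-0.41) and AXIN2 (-0.47), the scaffolds of the complex, were 0.058 apart in the authors' deposited table. AXIN2 is itself a widely used target gene of the pathway. CSNK1A1, the casein kinase that places the first phosphate on beta-catenin, had -1.45 (chromosome 5, 149492982 to 149551439) in the authors' deposited table. APC, the large tumour suppressor scaffold, held the repeated value -8.53 in the authors' deposited table.

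The listed members among beta-catenin and its nuclear partners were divided in HUH7 between positive TCF genes and negative adaptor genes. CTNNB1, which encodes beta-catenin, had 0.80 (chromosome 3, 41199505 to 41240443) in the authors' deposited table. TCF7L1, a TCF factor known mostly as a repressor, had 2.99 (chromosome 2, 85133392 to 85310387) in the authors' deposited table. TCF7 had 1.40 in the authors' deposited table. Both listed TCF genes thus lay above the upper quartile of the column. BCL9 (-0.67), BCL9L (-0.30) and PYGO2 (-0.16), the adaptors that join beta-catenin to the transcription machinery, were the negative ones in the authors' deposited table. PYGO1, the paralogue of PYGO2 and not a member, had 1.55 in the authors' deposited table, so the division holds for the members only. With TCF7L2 and LEF1 listed for PLC/PRF/5 alone, the 6 HUH7 genes of this role had a median of 0.32.

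The core kinase cassette of the Hippo pathway was negative throughout in HUH7, with 5 of 5 listed genes below 0 beside 39.1% of all genes. LATS1 and LATS2, the kinases that phosphorylate YAP and TAZ, had -0.66 and -0.71 in the authors' deposited table. SAV1, the scaffold of the cassette, had -0.27 in the authors' deposited table. The LATS genes differed by 0.052 and lay just below the lower quartile of the column. STK3 (-7.53) and STK4 (-8.53), the MST kinases at the top of the cassette, held repeated values in the authors' deposited table. With repeated values left aside, the 3 remaining cassette genes had a median of -0.66, and none of them reached -1.

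Upstream of the cassette, NF2 had the lowest unrepeated value of all members. NF2 encodes merlin, a membrane-linked tumour suppressor that activates the cassette, and had -1.92 (chromosome 22, 29603556 to 29698600) in the authors' deposited table. AMOTL2, an angiomotin-like protein that holds YAP at cell junctions, had -0.82 in the authors' deposited table. AMOTL1, its paralogue, had the repeated value 10.92 in the authors' deposited table. The only positive upstream gene thus held a repeated value, and both unrepeated upstream values were negative.

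YAP1, the coactivator that the cassette restrains, lay at 0.04 in the authors' deposited table. Of the 4 TEAD genes, the DNA-binding partners of YAP, 3 were positive and 1 negative as deposited, and 2 lay above and 2 below the column median of 0.20. TEAD2 had 1.37 in the authors' deposited table. TEAD3 (0.82), TEAD4 (0.19) and TEAD1 (-0.56) followed in the authors' deposited table. The TEAD values spanned 1.93.

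CCN1 and CCN2, matricellular proteins whose genes are standard readouts of YAP and TEAD, parted in HUH7. CCN1 had 2.68 (chromosome 1, 85580761 to 85583950) in the authors' deposited table. CCN2 had -0.41 (chromosome 6, 131948176 to 131951372) in the authors' deposited table. The targets were 3.09 apart, CCN1 above 91.5% and CCN2 above 23.9% of all genes. The promoter of CCN2 is shown because it carries the letters that TEAD factors are known to prefer. The 250 bases before its RefSeq start (GRCh38.p14, minus strand, chr6:131951373-131951622) read as follows, with each GGAATG in capitals.
CCN2: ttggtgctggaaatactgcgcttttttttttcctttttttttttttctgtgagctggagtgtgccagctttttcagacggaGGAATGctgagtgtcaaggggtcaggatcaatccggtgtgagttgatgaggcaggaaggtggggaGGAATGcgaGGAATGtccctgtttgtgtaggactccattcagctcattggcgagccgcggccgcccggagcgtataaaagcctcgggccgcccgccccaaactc
The window held 3 matches, which begin 169, 104 and 95 bases before the start. Windows of this length were matched for 47 of the 60 members. GGAATG, read on both strands, was found in 4 of these (CCN2, GSK3A, VANGL1 and YAP1), or 8.51%, beside 11.9% of 27305 windows of all genes. A match is a description of letters and no measured binding, and the m6A values do not bear on promoter use.

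Among the Notch members, receptors and ligands held both the highest and the lowest HUH7 values, with the nuclear members between them. Other Notch genes reached further, from SPEN at -0.83 to DTX3 at 3.84 among unrepeated values in the authors' deposited table. DLL4, a ligand best known from vessel sprouting, had 3.39 (chromosome 15, 40929340 to 40939073) in the authors' deposited table. JAG1, the ligand known from bile duct formation, had -0.29 (chromosome 20, 10637684 to 10673999) in the authors' deposited table. The listed ligands were therefore 3.68 apart. NOTCH1 had 2.56 (chromosome 9, 136494433 to 136546048) in the authors' deposited table. NOTCH2, the receptor most tied to bile duct development, had 0.64 in the authors' deposited table. NOTCH3 had -0.25 in the authors' deposited table, so the 3 receptors spanned 2.81.

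RBPJ, the DNA-binding partner of the cleaved receptor, had 0.20 in the authors' deposited table. MAML1, its Mastermind coactivator, had -0.15 in the authors' deposited table. HES1, the repressor gene that Notch switches on, had 0.29 (chromosome 3, 194136148 to 194138732) in the authors' deposited table. All nuclear Notch members lay within the interquartile range of the column. The 250 bases before the HES1 start (RefSeq, GRCh38.p14, plus strand, chr3:194135898-194136147) are shown because they carry the letters that RBPJ is known to prefer, with each TGGGAA in capitals.
HES1: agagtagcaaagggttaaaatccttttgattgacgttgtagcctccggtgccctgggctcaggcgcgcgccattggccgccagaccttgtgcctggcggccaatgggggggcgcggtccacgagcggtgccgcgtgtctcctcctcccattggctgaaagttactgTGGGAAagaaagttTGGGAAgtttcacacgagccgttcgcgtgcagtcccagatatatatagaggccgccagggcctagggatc
The HES1 window held 2 matches, 84 and 70 bases before the start. TGGGAA, read on both strands, was found in 9 of the 47 member windows (19.1%), among them those of APC, LEF1, NF2 and VANGL2, beside 21.1% of all windows. CTTTGA, the core that TCF and LEF factors prefer, was found in 1 of the 47 (RBPJ), or 2.13%, beside 11.4% of all windows. The run TGGGAATG joins the TEAD and RBPJ letters, so that a match to one can overlap the other, and was found in 0 member windows and in 1.16% of all windows.

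Between the 3 pathways, the HUH7 medians were ordered Notch, Wnt and Hippo, and their intervals overlapped. Notch had a median of 0.25 (binomial 95% interval -0.29 to 3.39, n = 8 genes) with 5 positive and 3 negative genes. Wnt had 0.01 (-0.41 to 0.80, n = 30) with 15 positive and 15 negative genes. Hippo had -0.41 (-0.82 to 0.82, n = 15) with 6 positive and 9 negative genes. Of all genes in the column, 60.8% were positive. Values of 1 or more were held by 7 Wnt, 3 Hippo and 2 Notch genes and values of -1 or less by 5 Wnt, 3 Hippo and 0 Notch genes, beside 22.2% and 14.6% of all genes. Without repeated values the medians were 0.17 for Wnt and -0.34 for Hippo, and Notch held none. Unrepeated values of 1 or more were held by 6 Wnt, 2 Hippo and 2 Notch genes (20.1% of all such genes). Those of -1 or less were held by 2 Wnt genes and 1 Hippo gene (7.72%). No difference between pathways was tested, since genes of 1 comparison are not replicates.

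Ligands and receptors did not stand apart from intracellular parts in HUH7 by their median. The 15 listed ligand and receptor genes had a median of -0.13 (-0.29 to 1.64), with 7 positive and 8 negative. The 30 listed intracellular genes had -0.15 (-0.56 to 0.29), with 14 positive and 16 negative. Over the whole column, 60.8% of genes were positive. A value of 1 or more was held by 5 of the 15 ligand and receptor genes and by 4 of the 30 intracellular genes, beside 22.2% of all genes, and the difference between the classes was not tested. At -1 or less lay 1 of the 15 and 5 of the 30, beside 14.6% of all genes. Among unrepeated values, 4 of 13 ligand and receptor genes and 3 of 26 intracellular genes lay at 1 or more (20.1% of all such genes). At -1 or less lay 0 of the 13 and 2 of the 26 (7.72%). The 8 other membrane or secreted members, such as VANGL2, CCN1 and WLS, had the highest median of the classes, 0.64, with 5 positive and 3 negative genes. Joined with them, ligands and receptors had a median of 0.15, so the sign of that median rests on where the class ends. By pathway, the ligand and receptor genes had medians of -0.15 for Wnt (n = 10) and 0.64 for Notch (n = 5), and the intracellular genes 0.02 for Wnt (n = 14), -0.56 for Hippo (n = 13) and 0.20 for Notch (n = 3).

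**Figure D2:**
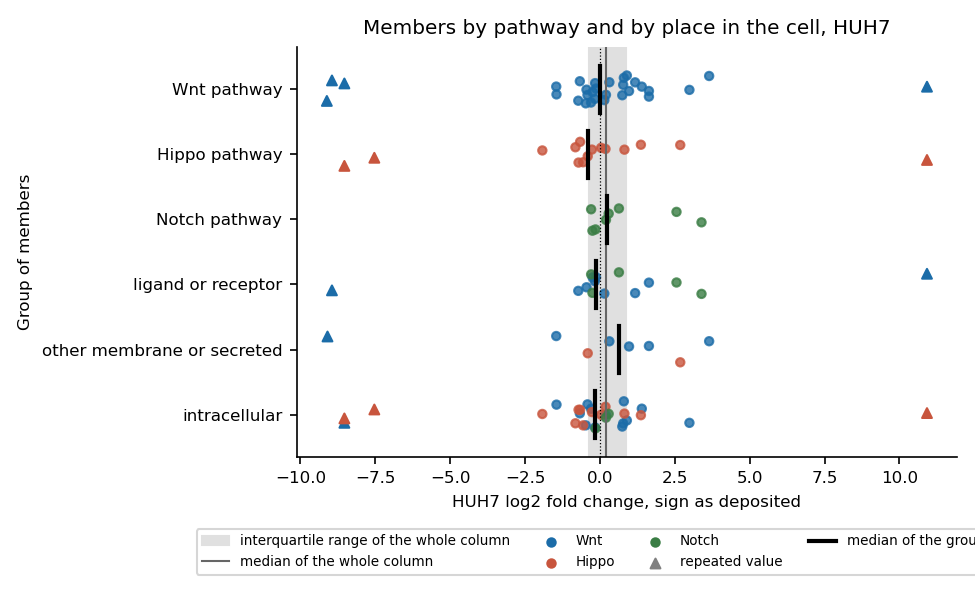
HUH7 log2 fold change (horizontal axis, sign as deposited) of the members grouped by pathway and by place in the cell (vertical axis), with 1 point per gene, triangles for repeated values and a black bar at each group's median. The medians run from -0.41 for Hippo to 0.64 for other membrane or secreted members, beside the column median of 0.20, and points of all groups overlap.

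In PLC/PRF/5 the 31 listed members carried 54 peaks, 44 positive and 10 negative. Positive peaks made up 81.5% (exact 95% interval 68.6 to 90.7) beside 86.0% of all peaks, and the median of the members' peaks was 5.33 beside 5.44. At -1 or less lay 3 of the members' peaks (7.31% of all peaks). Taking the median of the peaks of each gene, 28 members were positive and 3 negative (90.3% beside 90.3% of all genes). Against the column median of the gene values, 51.6% of the members lay above it. Gene medians of 1 or more were found for 27 members (84.5% of all genes) and of -1 or less for 1 member (4.47% of all genes). An absolute value of 1 was reached by 28 gene medians (89.0% of all genes) and by 43 peaks (87.1% of all peaks). These shares and medians are close to those of the whole column, so they are no result about the members.

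Wnt members of PLC/PRF/5 were led in number of peaks by LRP6, with 7. Its peaks stood at -0.98, -0.95, -0.58, 6.12, 8.31, 11.87 and 12.27 in the authors' deposited table. The co-receptor gene thus had peaks near both ends of the range that the whole column fills. APC had 4 peaks at -1.51, 2.38, 8.13 and 8.64 in the authors' deposited table. RNF43, the receptor-removing ligase, had the highest peak of all members at 12.92 and another at -0.62 in the authors' deposited table. TCF7L2, a main TCF factor of liver and gut, had peaks at -1.44 and 10.70 in the authors' deposited table. Each of these genes had peaks of opposite sign, so a single value does not describe it.

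The listed Frizzled genes had only positive peaks in PLC/PRF/5, where 86.0% of all peaks were positive. FZD4 had peaks at 0.79, 4.86 and 6.27 in the authors' deposited table. FZD3 had peaks at 0.54 and 6.69 in the authors' deposited table. FZD7 had 2.73 and FZD5 had 0.84 in the authors' deposited table. Among the intracellular Wnt genes, the factor gene LEF1, like TCF7L2 absent from the HUH7 list, had 11.53 in the authors' deposited table. PYGO2 had 6.70 in the authors' deposited table. BCL9L had peaks at 5.95 and 6.19, as close together as those of LATS1, in the authors' deposited table. GSK3B (4.44), CSNK1A1 (1.56) and DVL3 (-0.76) had 1 peak each in the authors' deposited table.

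Hippo members had 15 peaks in 11 genes of PLC/PRF/5, 13 of them positive. Cassette genes had only positive peaks there, in a column where 86.0% of all peaks were positive. SAV1 had 11.97, MOB1A, the LATS coactivator, had 7.45, and STK4 had 4.53 in the authors' deposited table. LATS2 had peaks at 3.99 and 12.41 in the authors' deposited table. LATS1 had peaks at 2.51 and 2.74 in the authors' deposited table. YAP1 had peaks at -0.09 and 12.53, 12.62 apart, in the authors' deposited table. WWTR1, which encodes TAZ and was listed for this line alone, had 6.40 in the authors' deposited table. AMOTL1 had 9.50 and the target CCN2, given under its older name CTGF, had 11.67 in the authors' deposited table. TEAD1 had peaks at 2.52 and 4.46 in the authors' deposited table. TEAD4, with -0.37 in the authors' deposited table, was the only Hippo member with a negative median. Of the other Hippo genes, which are not members, 4 of 28 listed had a negative median.

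Notch members had 10 peaks in 6 genes of PLC/PRF/5, 9 of them positive, close to the 86.0% of all peaks. DLL4 had peaks at 7.69 and 12.31 in the authors' deposited table. JAG1 had 12.06 in the authors' deposited table. Both ligand genes therefore lay in the upper part of the range. NOTCH2, the only listed receptor, had peaks at 1.27 and 2.53 in the authors' deposited table. MAML1 had peaks at 0.73, 5.80 and 7.43 in the authors' deposited table. HES1 had 8.72 and RBPJ, the lowest gene median of all members, had -1.30 in the authors' deposited table.

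**Figure D3:**
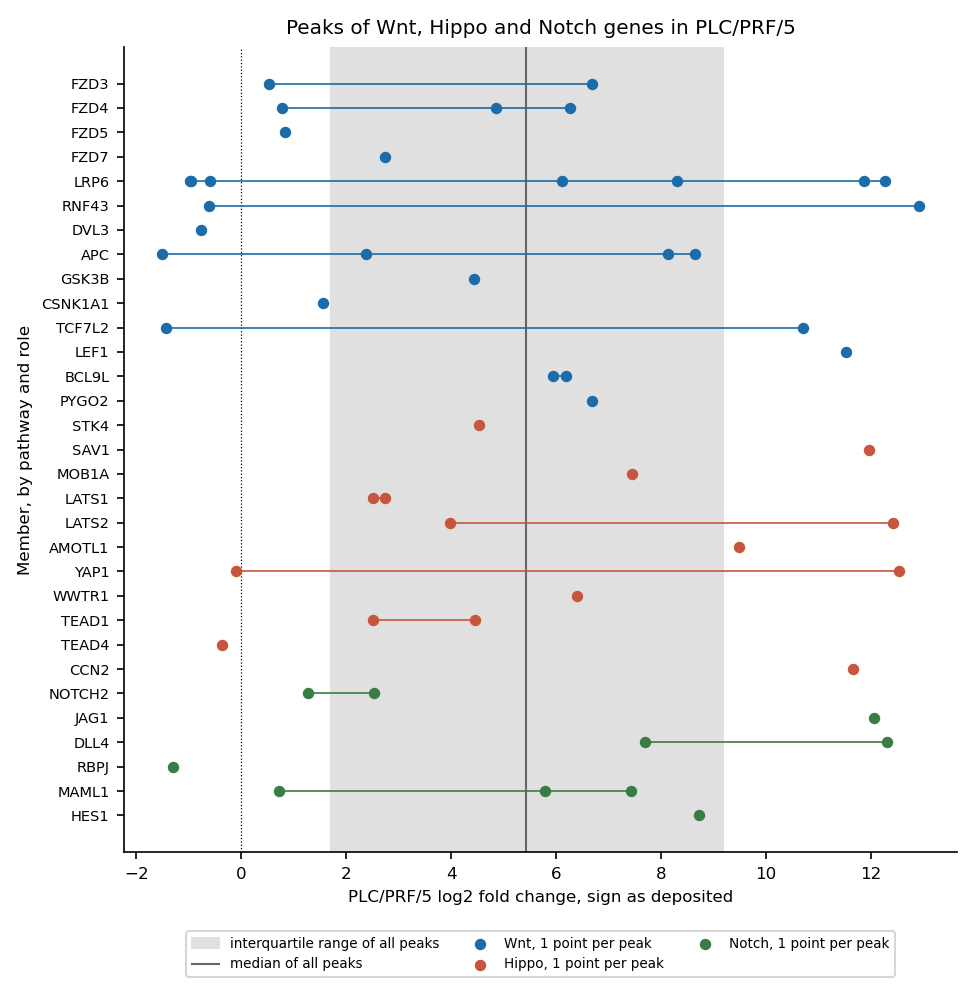
PLC/PRF/5 log2 fold change (horizontal axis, sign as deposited) of the 54 peaks of the 31 listed members (vertical axis, by pathway and role), 1 point per peak, with a line from the lowest to the highest peak of a gene. The points spread over the whole range from -1.51 to 12.92, and the grey band from 1.72 to 9.19 marks the interquartile range of all peaks.

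Among the 14 members with 2 or more PLC/PRF/5 peaks (45.2% of the 31, beside 39.5% of all genes), 5 had peaks of both signs. That is 35.7%, beside 33.2% of all genes with 2 or more peaks. The distance from the lowest to the highest peak had a median of 6.43 over these members and of 6.42 over all such genes. Peaks of 1 member thus lay as far apart as those of genes in general.

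By pathway, the PLC/PRF/5 gene medians had medians of 4.75 for Wnt (1.56 to 6.15, n = 14 genes), 6.40 for Hippo (2.62 to 11.67, n = 11) and 7.26 for Notch (-1.30 to 12.06, n = 6), beside 5.45 for all genes. Ligands and receptors had 4.24 (0.84 to 12.06, n = 8) and intracellular parts 5.80 (3.49 to 7.45, n = 21). All of these intervals overlapped and held the column's median, and no difference was tested.

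The 27 members listed in both lines share no library between the lines. As deposited, 7 had the same sign in HUH7 and at every PLC/PRF/5 peak, 16 had opposite signs and 4 had PLC/PRF/5 peaks of both signs. Over all 3929 genes listed in both lines these shares were 47.9%, 37.0% and 15.1%, beside 25.9%, 59.3% and 14.8% of the members. The 7 with the same sign were positive in both, namely AMOTL1, DLL4, FZD3, FZD5, GSK3B, HES1 and NOTCH2. Of the 16 with opposite signs, 13 were negative in HUH7 and positive in PLC/PRF/5 (48.1% of the members, 32.2% of all genes in both lines). With 90.3% of all PLC/PRF/5 genes positive by their median, the split largely follows the HUH7 sign, and nothing particular to the members is read from it. Whether both columns use the same direction is not stated. DLL4 combined an HUH7 value of 3.39 with PLC/PRF/5 peaks at 7.69 and 12.31 in the authors' deposited table. CCN2, SAV1 and JAG1 had HUH7 values between -0.41 and -0.27 and PLC/PRF/5 peaks between 11.67 and 12.06 in the authors' deposited table.

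**Figure D4:**
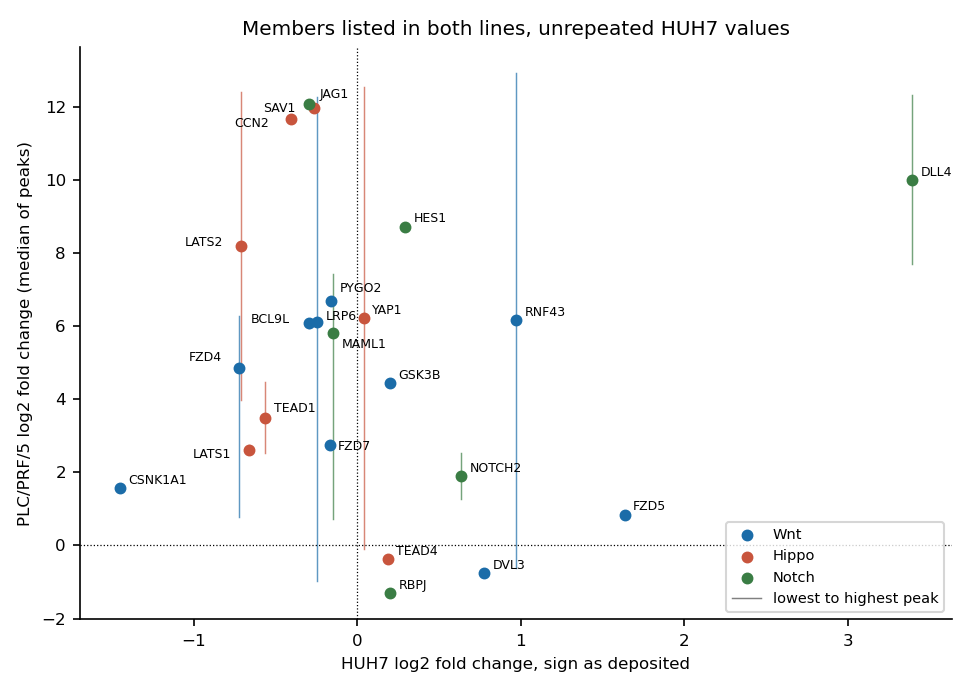
HUH7 log2 fold change (horizontal axis) and median PLC/PRF/5 log2 fold change (vertical axis), signs as deposited, of the 23 members listed in both lines with an unrepeated HUH7 value, with a line from the lowest to the highest PLC/PRF/5 peak. Most points lie above 0 on the vertical axis on both sides of 0 on the horizontal one, and DLL4, at 3.39 on the horizontal axis, lies apart from the rest.

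Other genes of the same pathways were listed by name beside the members. Against the HUH7 column median of 0.20, the other Wnt and Hippo genes had close medians and the other Notch genes a higher one. The other Wnt genes had 26 positive and 18 negative of 44 listed (78 named), with a median of 0.24, 12 at 1 or more and 6 at -1 or less. KREMEN2 (2.97), RYK (2.43) and CBY1 (-2.19) had the unrepeated values largest in size of the other Wnt genes in the authors' deposited table. KREMEN2 is a receptor for the Wnt inhibitors of the DKK family and RYK a Wnt receptor of the kinase fold. CBY1 is an inhibitor of beta-catenin. The other Hippo genes had 22 positive and 15 negative of 37 listed (49 named), with a median of 0.18, 9 at 1 or more and 10 at -1 or less. STK24 (1.93), AMOT (1.70) and PTPN21 (1.48) led the other Hippo genes by unrepeated value in the authors' deposited table. STK24 is an MST-family kinase, AMOT the angiomotin that gives the AMOTL genes their name, and PTPN21 a phosphatase. The other Notch genes had 25 positive and 11 negative of 36 listed (47 named), with a median of 0.49, 11 at 1 or more and 4 at -1 or less. DTX3 (3.84), KAT2B (2.24) and MIB1 (2.10) led the other Notch genes by unrepeated value in the authors' deposited table. DTX3 is of the Deltex family, KAT2B an acetyltransferase and MIB1 the ligase that internalises Notch ligands. Beside these counts stand 60.8% of all genes positive, 22.2% at 1 or more and 14.6% at -1 or less. Repeated values were held by 9.09% of the other Wnt, 24.3% of the other Hippo and 16.7% of the other Notch genes, beside 12.6% of all genes. No difference was tested.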

How the data were processed

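MeRIP-seq values were taken from 1 table deposited by the authors, with gene names and log2 fold changes for HUH7 and PLC/PRF/5. Per the labels' protocols, poly(A) RNA was selected, fragmented and immunoprecipitated with an m6A antibody. Build hg38 and FastQC 0.12.0 are named per the submitters' processing notes. For the aligner, peak caller, scaling and ratio direction, the steps were not given in the sources used here. Counts of reads were not used here, so the depth is unknown and the count model that had been planned could not be fitted.

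Names were brought to current symbols with the RefSeq table of GRCh38.p14 (98.4% of HUH7 and 93.6% of PLC/PRF/5 names matched), from which gene coordinates were taken. Peaks of a PLC/PRF/5 gene were summarised by their median. An HUH7 value shared by 10 or more genes to 6 decimals and above 1 in size was called repeated. Intervals of medians are binomial (order statistics) and those of shares exact (Clopper-Pearson), at 95%, computed with SciPy 1.17.1 and tested on simulated data. Every listed member was named, and per pathway the 3 other genes with the largest unrepeated HUH7 values. Members and lists were chosen with earlier results of these data known. Alternatives were names as given, centring, other thresholds, repeated values left out, other summaries of peaks and wider classes.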

Additional observations from a re-analysis of the deposited data

Results flagged for a closer look

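For 16 members the HUH7 value and every PLC/PRF/5 peak had opposite signs as deposited, or 59.3% of the members in both lines beside 37.0% of all genes in both. In PLC/PRF/5, 90.3% of all genes had a positive median, so members negative in HUH7 mostly fall here. With 1 comparison per line, the difference was not tested, and it is not stated whether both columns use the same direction. Negative in HUH7 and positive in PLC/PRF/5 were the Hippo genes STK4 (-8.53), LATS2 (-0.71), LATS1 (-0.66), TEAD1 (-0.56), CCN2 (-0.41) and SAV1 (-0.27) by their HUH7 values in the authors' deposited table. The Wnt genes of this kind were CSNK1A1 (-1.45), FZD4 (-0.72), BCL9L (-0.30), FZD7 (-0.17) and PYGO2 (-0.16), and the Notch genes JAG1 (-0.29) and MAML1 (-0.15), by their HUH7 values in the authors' deposited table. Positive in HUH7 and negative in PLC/PRF/5 were DVL3 (0.78), RBPJ (0.20) and TEAD4 (0.19) in the authors' deposited table. TEAD4 lies below 0 in HUH7 once the column is centred on its median.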

How the results depend on the processing

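Of 67 alternatives to 14 summary values, 52 kept the value within its interval or count range, 10 moved it and 5 turned its sign. Centring each column on its own median turned the Wnt median in HUH7 to -0.19, and in PLC/PRF/5 the Wnt median to -0.70 and the ligand and receptor median to -1.21. It moved the HUH7 ligand and receptor median to -0.33, the PLC/PRF/5 Hippo median to 0.95, the intracellular median to 0.35 and the share of positive members to 51.6%. With only absolute values of 1 or more, the HUH7 medians became 1.29 for Wnt, 2.10 for ligands and receptors (a turned sign) and -1.45 for intracellular parts. The wider class turned the HUH7 ligand and receptor median to 0.15. Members past an absolute value of 1 in HUH7 numbered 20 (36.9% of all genes passed), 13 without repeated values, and 12 at 2 or more (21.4% of all genes). By its largest peak per gene, the PLC/PRF/5 Wnt median was 6.48, and counting every peak gave 43 past 1 (87.1% of all peaks) in place of 28 genes (89.0% of all genes). The effect of centring and of the value limit follows from their construction. Some of the 52 could not have changed. Names as given could move no HUH7 value, since 0 HUH7 members were matched through a synonym. In PLC/PRF/5 only 1 member, CCN2, was, so values without it were fixed as well. Notch held no repeated HUH7 value, so leaving these out could not move its median. No paired analysis was possible because each group holds 1 library and the table gives no value per library. With no replicates to leave out and depth unknown, neither the error between cultures nor a floor for low signals could be given.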

Other observations

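Some other pathway genes, chosen after their values were seen, had many PLC/PRF/5 peaks or repeated HUH7 values. FAT1, a large cadherin upstream of the Hippo pathway, had 13 peaks in PLC/PRF/5, 12 of them positive, from -1.43 to 12.75 in the authors' deposited table. TAOK1, a kinase that activates the MST kinases, had 9 peaks, 6 of them positive, from -1.87 to 11.42 in the authors' deposited table. HEYL (11.24), HES2 (11.09) and HEY1 (-9.11), genes of the family to which the Notch target HES1 belongs, held repeated HUH7 values of both signs in the authors' deposited table, where 12.6% of all genes held a repeated value. HEY2 (1.01), HES6 (0.12) and HES4 (0.10) of the same family had unrepeated values in the authors' deposited table. ADAM10, the protease that cuts Notch after ligand binding, held the repeated value -7.53 in HUH7, whereas ADAM17, a related protease, had 1.65 in the authors' deposited table.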
